A study of Mus musculus with 17 samples.

Results

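Deep-layer cortical neuron marker genes were followed through the cortex libraries: Bcl11b, Fezf2, Etv1, Tbr1, Tle4, Foxp2, Rprm and Crym. These 8 genes were taken by symbol from the count table, where each symbol occurs once, out of 56953 genes listed, and all 8 passed the filter on low counts that left 23062 genes for testing. RNA was taken from prefrontal cortex of mice aged 8 months on the B6C3F1/J background. The groups were WT (5 libraries), PS19 (6 libraries, labelled hTau), which carry a human P301S Tau transgene driven by the Prnp promoter, and CgA-KO/PS19 (6 libraries, labelled CgA-KO/hTau), which carry the same transgene and lack Chga throughout the body from birth. Both transgenic groups therefore share mutant Tau, and a CgA-KO group without Tau was not analysed here. The knockout allele was made by Cre-loxP in a mixed 129/SvJ and C57BL/6 background and backcrossed first to C57BL/6J and then to B6C3F1/J, and what 129 DNA remained around Chga was not determined.

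Neurons of cortical layers 5 and 6 send axons out of the cortex, to the brainstem and spinal cord from layer 5 and to the thalamus from layer 6. Fezf2 sets the subcerebral identity of layer 5 neurons, Bcl11b (Ctip2) acts in their axon outgrowth, and Etv1 (Er81) is an ETS factor of layer 5. Tbr1, a T-box factor, sets the corticothalamic identity of layer 6 neurons, Tle4 is a Groucho corepressor of those cells, Foxp2 is a forkhead factor found there, and Rprm encodes the cell cycle inhibitor Reprimo. Crym encodes a thyroid hormone binding protein of deep-layer neurons. Bcl11b, Foxp2 and Crym are also known from the striatum, the forebrain nucleus beneath the cortex, where Bcl11b and Foxp2 mark projection neurons. In bulk tissue, fewer cells of a type and less RNA per cell cannot be told apart.

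Promoter windows are shown for Bcl11b, Fezf2 and Rprm, whose levels over the libraries differed from each other. The 250 bases before the RefSeq start (build GRCm38.p6) are written 5′ to 3′ on the strand of the gene, with CpG dinucleotides in capitals. Bcl11b is from chr12:108003415-108003664 (minus strand), Fezf2 from chr14:12345866-12346115 (minus strand) and Rprm from chr2:54085553-54085802 (minus strand). The RefSeq start lies inside the GENCODE gene for Fezf2 and Bcl11b, with 250 and 188 of the 250 bases within that gene model, and 0 for Rprm.
Bcl11b: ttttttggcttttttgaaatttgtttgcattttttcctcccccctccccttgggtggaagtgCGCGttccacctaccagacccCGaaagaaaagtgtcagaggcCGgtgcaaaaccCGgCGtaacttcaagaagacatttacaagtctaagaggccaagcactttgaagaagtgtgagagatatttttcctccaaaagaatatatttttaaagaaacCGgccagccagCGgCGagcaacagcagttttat
Fezf2: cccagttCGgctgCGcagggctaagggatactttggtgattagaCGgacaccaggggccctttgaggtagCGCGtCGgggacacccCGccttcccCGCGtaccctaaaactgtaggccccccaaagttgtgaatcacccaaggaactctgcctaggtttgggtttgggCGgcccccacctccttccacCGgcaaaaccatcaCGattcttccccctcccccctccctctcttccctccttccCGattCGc
Rprm: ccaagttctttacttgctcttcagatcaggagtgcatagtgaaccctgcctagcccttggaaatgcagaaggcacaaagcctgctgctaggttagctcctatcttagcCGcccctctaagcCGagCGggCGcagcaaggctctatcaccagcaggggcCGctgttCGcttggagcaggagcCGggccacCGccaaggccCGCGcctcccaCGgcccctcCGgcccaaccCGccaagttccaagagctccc
Bcl11b has 9 CpG in this window at a GC content of 44.8%, Fezf2 14 at 61.2% and Rprm 13 at 62.4%, against a median GC content of 52.4% over 32851 promoter windows of this length. Of the 8 genes, 6 had such a window, and Foxp2 and Crym did not. None of those 6 held the T-box letters GGTGTGA, the ETS letters CCGGAAG or the forkhead letters TGTTTAC on either strand, letters that occur in 3.33%, 6.91% and 3.17% of all windows. These are descriptions of letters and say nothing of binding.

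The libraries were not alike within a genotype. Total counts were 8838334 to 227651681, with WT replicate 4 the shallowest, where the lowest count of any of the 8 genes was 242 (Crym). Chga was not counted in any CgA-KO/PS19 library (0 counts) and was 152 to 180.1 CPM (counts scaled to the size of the library) in the others. Ddx3y, a Y-linked gene, was at least 49.8 CPM in the libraries numbered 1 to 3 and at most 0.0582 CPM elsewhere. Striatal markers differed between libraries as well. Their score, the mean centred log2(CPM + 1) of 25 genes that include none of the 8, was 0.47 to 2.39 in WT, -1.20 to -1.102 in PS19, 1.90 and 1.94 in CgA-KO/PS19 replicates 1 and 3, -0.16 in replicate 2 and -1.40 to -1.17 in replicates 4 to 6. Their summed level spanned 1624 to 5677 CPM for WT, 603 to 789 for PS19 and 463 to 4013 for CgA-KO/PS19. At an FDR under 0.05 in edgeR's quasi-likelihood test, 20 of 25 were called higher in WT than in PS19, where 3.95% of all tested genes were. In CgA-KO/PS19, 15 of 25 were called higher than in PS19, where 5.5% of all tested genes were. Of the 25, 1 was at 0 in every PS19 library. Drd2, the dopamine receptor of indirect pathway striatal neurons, was 33.4 to 132 CPM in WT and 0.60 to 1.31 CPM in PS19. PS19 replicates 4 to 6 were unusually alike, with a spread of the log2 ratio (1.48 times the median absolute deviation over 3761 genes) of 0.0523 to 0.0607. CgA-KO/PS19 replicates 1 and 3 came next, at 0.0980, and every other pair within a genotype was at 0.146 or more. Whether such close libraries are independent was not tested.

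Compared per length, as CPM per kb of exon, Rprm and Tbr1 were the highest of the 8 genes in every genotype and Foxp2 the lowest. In WT, Rprm was 41.2 ± 6.98 CPM per kb (SD, n = 5), Tbr1 38.0 ± 11.1 and Bcl11b 29.7 ± 10.2, neighbours that do not differ beyond their spread. They were followed by Tle4 at 14.3 ± 2.999, Crym at 14.0 ± 5.73, Fezf2 at 9.79 ± 1.98 and Etv1 at 9.36 ± 1.76, with Foxp2 at 2.66 ± 0.726. Bcl11b, after Rprm and Tbr1 in WT, came below Fezf2 and Tle4 in PS19, at 11.4 ± 1.29 CPM per kb (SD, n = 6), where Fezf2, Tle4 and Etv1 lay within its spread. In CgA-KO/PS19 the order was Tbr1, Rprm, Bcl11b, Tle4, Fezf2, Crym, Etv1 and Foxp2, and Rprm, at 38.8 ± 4.61 (SD, n = 6), stood beyond the spread from Bcl11b at 16.8 ± 6.68.

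**Figure D1:**
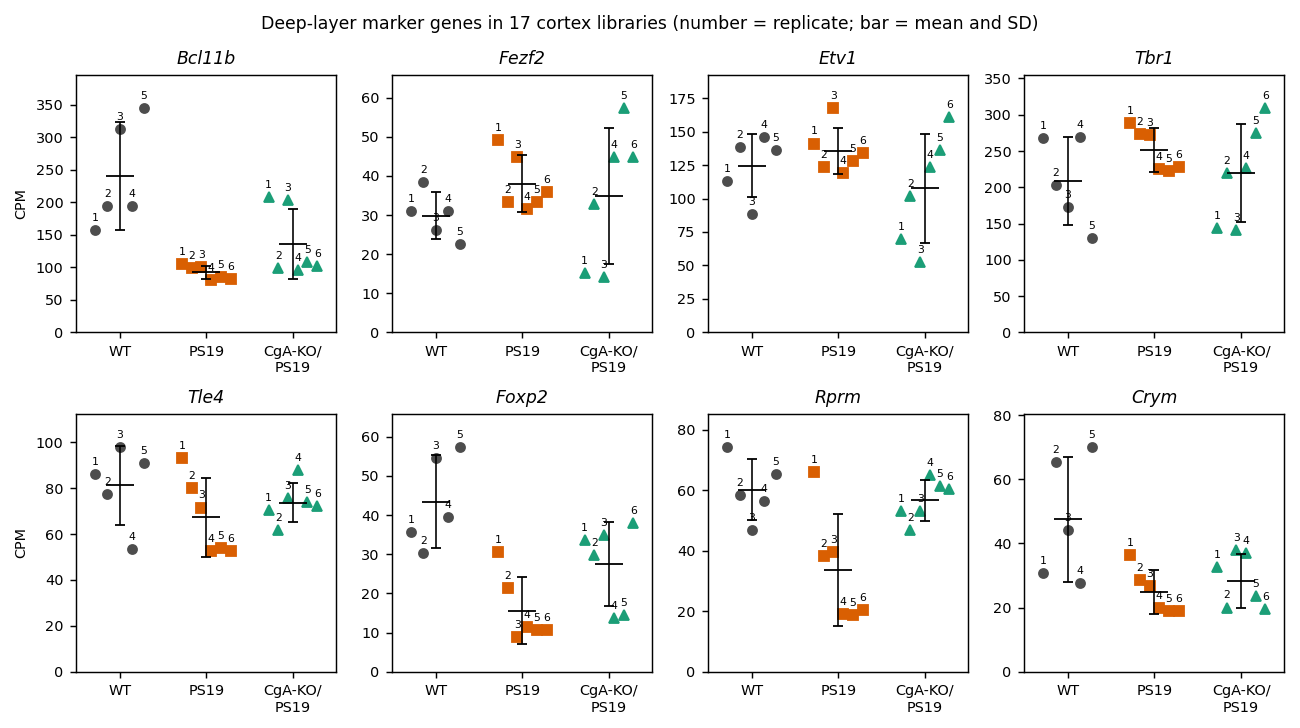
Level of each of the 8 genes in each library, in CPM on a linear axis from 0, by genotype, with the replicate number beside each point and the mean and SD as a bar. Bcl11b is 157 to 345 CPM in WT and 80.9 to 105 in PS19, and CgA-KO/PS19 replicates 1 and 3 stand apart for Bcl11b, Fezf2, Etv1 and Tbr1.

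WT and PS19 cortex were compared to ask which of these genes differed with the Tau transgene. Bcl11b, Foxp2 and Crym were lower in PS19 than in WT, and Rprm, Fezf2, Etv1, Tbr1 and Tle4 did not pass the test. At an FDR under 0.05 in edgeR's quasi-likelihood test, 3 of the 8 were called, all higher in WT, where 5.9% of all tested genes were called, 3.95% higher and 1.95% lower in WT. At the threshold of the study's Methods, a difference of over 0.5 in log2 and a raw p below 0.01, 4 of the 8 passed, each higher in WT, where 7.39% of all genes passed and 4.57% were higher. The study's Results text states a stricter cut on both fold change and FDR, which none of the 8 met here. The largest log2 fold change of the 8 was 1.48 (Foxp2). The median log2 fold change of the 8 was 0.56, beside -0.01 over all genes tested.

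Bcl11b was the 1 gene of the 8 whose groups did not overlap. It lies on chromosome 12 from 107910403 to 108003602 (minus strand, GRCm38). In WT it was 157, 194, 313, 194 and 345 CPM in replicates 1 to 5, and in PS19 it was 80.9 at the lowest, 92.3 at the median and 105 CPM at the highest. A lack of overlap was seen for 9.52% of all genes, 4.39% with WT above, and WT replicates 3 and 5, with the highest striatal scores, were the highest. The means were 240.7 ± 82.8 CPM in WT (SD, n = 5) and 92.4 ± 10.48 in PS19 (SD, n = 6), and the log2 fold change was 1.38 (standard error 0.24; Benjamini-Hochberg adjusted p = 0.00227, edgeR).

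Fezf2 and Etv1, the other layer 5 factors, did not follow it. Fezf2 (chromosome 14 from 12342094 to 12348189, minus strand) was 31.1, 38.5, 26.1, 30.9 and 22.5 CPM in WT, and 31.6, 34.5 and 49.2 CPM at the lowest, median and highest of PS19. Here WT replicates 3 and 5 were the lowest, and the groups overlapped. The log2 fold change was -0.35 with a 95% interval of -0.97 to 0.27 (adjusted p = 0.538, edgeR). Etv1 (chromosome 12 from 38779380 to 38870484, plus strand) was 113, 138, 88.8, 146 and 137 CPM in WT and 119, 131 and 167 at the lowest, median and highest of PS19, groups that overlapped widely. Its log2 fold change was -0.12 with an interval of -0.59 to 0.34 (adjusted p = 0.806, edgeR).

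Of the layer 6 genes, Tbr1 and Tle4 did not pass and Foxp2 did. Tbr1 (chromosome 2 from 61802930 to 61814114, plus strand) was 268, 203, 173, 269.5 and 129.9 CPM in WT and 222, 249.6 and 289 CPM at the lowest, median and highest of PS19, with a log2 fold change of -0.27 and an interval of -0.71 to 0.17 (adjusted p = 0.502, edgeR). WT replicates 3 and 5 were again the lowest. Tle4 (chromosome 19 from 14448150 to 14598051, minus strand) was 86.3, 77.5, 97.8, 53.7 and 91.2 CPM in WT and 52.7, 62.7 and 93.4 CPM at the lowest, median and highest of PS19, with a log2 fold change of 0.27 and an interval of -0.08 to 0.63 (adjusted p = 0.374, edgeR). PS19 replicates 4 to 6 held the low values of that group, at 52.7 to 53.8 CPM. Foxp2 (chromosome 6 from 14901349 to 15441977, plus strand, with the miRNA gene Gm25470 inside it) was 35.7, 30.3, 54.5, 39.5 and 57.2 CPM in WT and 8.84, 11.1 and 30.5 CPM at the lowest, median and highest of PS19. Only PS19 replicate 1 reached the WT range, and the log2 fold change was 1.48 (standard error 0.34, adjusted p = 0.0142, edgeR).

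Rprm and Crym were likewise high in WT and low in part of PS19. Rprm (chromosome 2 from 54084093 to 54085552, minus strand) was 74.1, 58.3, 46.8, 56.5 and 65.2 CPM in WT. In PS19 it was 65.9 CPM in replicate 1, 38.1 and 39.4 in replicates 2 and 3, and 18.7 to 20.4 in replicates 4 to 6. Replicate 1 alone lay within the WT range, and the log2 fold change of 0.84 (standard error 0.27) did not pass (adjusted p = 0.0716, edgeR). Crym (chromosome 7 from 120186380 to 120202111, minus strand) was 30.7, 65.4, 44.2, 27.6 and 70.0 CPM in WT and 19.0, 23.3 and 36.3 at the lowest, median and highest of PS19. The groups overlapped, with WT replicates 1 and 4 within the PS19 range, and the log2 fold change was 0.94 (standard error 0.26, adjusted p = 0.0408, edgeR).

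Bcl11b stayed called on leaving out any 1 of the 17 libraries, at log2 fold changes of 1.22 to 1.501 and adjusted p of 0.00136 to 0.00939 (edgeR), and under 29 of 32 alternatives. The calls of Foxp2 and Crym were less stable, and held under 27 and 17 of the 32. Without PS19 replicates 4 to 6, Bcl11b, Foxp2 and Crym lost their calls in edgeR, at adjusted p of 0.109, 0.27 and 0.425. Their log2 fold changes were 1.25, 1.104 and 0.65 in that fit, which called 0.23% of all genes, against 5.9% with all libraries. Leaving out any of 8 single libraries (WT replicates 2, 3 and 5, PS19 replicates 2 to 6) lost the call of Crym, at an adjusted p of 0.0563 to 0.146, leaving out WT replicate 5 lost that of Foxp2, at 0.0507, and leaving out PS19 replicate 1 added Rprm, at 0.00397.

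CgA-KO/PS19 and PS19 were compared to ask which genes differed with the loss of CgA among mice that carry mutant Tau. None of the 8 was called in edgeR at an FDR under 0.05, where 9.72% of all genes passed, 5.5% above PS19 and 4.22% below it. At an unadjusted p under 0.05, 3 of the 8 passed (Rprm, Foxp2 and Bcl11b, each higher in CgA-KO/PS19), against 27.8% of all genes. DESeq2 called 1 (Rprm), beside 9.9% of all genes it was given, and limma voom with sample weights called 2 (Foxp2 and Rprm), beside 22.7% of all genes. Rprm alone passed the threshold of the study's Methods, where 9.73% of all genes did and 6.3% were higher. The comparison shares its PS19 libraries with the one above. The mitochondrial share of counts differed as well, at 3.84% to 18.2% in CgA-KO/PS19 and 2.56% to 4.59% in PS19, and its part was not tested.

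Rprm was 53.2, 46.8, 53.0, 64.9, 61.5 and 60.3 CPM in CgA-KO/PS19 replicates 1 to 6, close to the WT range of 46.8 to 74.1 CPM. PS19 replicate 1, at 65.9 CPM, exceeded each of them, and the other PS19 libraries lay below each. The log2 fold change was 0.75 with a 95% interval of 0.22 to 1.29 (adjusted p = 0.0666, edgeR). Without PS19 replicate 1 the adjusted p was 0.00858, and without PS19 replicates 4 to 6 the log2 fold change was 0.25 (adjusted p = 0.488, edgeR).

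Foxp2 was 13.7 at the lowest, 31.8 at the median and 37.9 CPM at the highest of CgA-KO/PS19. Replicates 4 and 5 were the low libraries, at 13.7 and 14.5 CPM, within the PS19 range, and the other 4 were 29.9 to 37.9 CPM. The log2 fold change was 0.82 with an interval of 0.14 to 1.49 (adjusted p = 0.110, edgeR), and without CgA-KO/PS19 replicate 4 or PS19 replicate 1 the adjusted p was 0.0336 to 0.0458.

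Bcl11b fell into 2 levels within CgA-KO/PS19. Replicates 1 and 3 were 209 and 203 CPM, within the WT range, and replicates 2, 4, 5 and 6 were 96.2 to 108 CPM, beside 80.9 to 105 CPM in PS19. Replicates 1 and 3, the most alike pair of CgA-KO/PS19 libraries, also had striatal scores at the WT level. Drd2 was 76.9 to 83.0 CPM in them, against 0.889 to 10.9 CPM in the other 4. The log2 fold change against PS19 was 0.56 with an interval of 0.08 to 1.04 (adjusted p = 0.120, edgeR), and without replicates 1 and 3 it was 0.13 (adjusted p = 0.710).

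Fezf2, Etv1 and Tbr1 divided the same libraries the other way. Fezf2 was 15.3 and 14.1 CPM in CgA-KO/PS19 replicates 1 and 3 and 32.7 to 57.3 CPM in the other 4. Etv1 was 69.5 and 52.8 CPM in replicates 1 and 3 and 102 to 161 CPM in the others. Tbr1 was 144 and 141 CPM in replicates 1 and 3 and 220.2 to 309 CPM in the others. For each of the 3 genes, replicates 1 and 3 lay below every PS19 library. Replicate 2 did so as well for Etv1 and, narrowly, for Tbr1, and replicates 4 to 6 lay within or above the PS19 range. Over all 6 libraries the log2 fold changes were -0.12 for Fezf2 (interval -0.71 to 0.46), -0.33 for Etv1 (interval -0.78 to 0.11) and -0.20 for Tbr1 (interval -0.62 to 0.23), with adjusted p of 0.811, 0.318 and 0.556 (edgeR). Within replicates 1 to 3 of both genotypes the 3 genes were lower in the knockout libraries, at -1.02, -0.93 and -0.71 (adjusted p = 0.0363, 0.0197 and 0.0256, edgeR), and within replicates 4 to 6 they were 0.53, 0.12 and 0.25 (adjusted p = 0.217, 0.642 and 0.655). These 3 of 8 stand beside 31.1% of all genes called within replicates 1 to 3, and 0.806% were called within replicates 4 to 6.

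Tle4 and Crym showed no such division. Tle4 was 61.9 at the lowest, 73.2 at the median and 87.9 CPM at the highest of CgA-KO/PS19, inside the PS19 range, with a log2 fold change of 0.13 and an interval of -0.21 to 0.47 (adjusted p = 0.632, edgeR). Crym was 19.5, 28.1 and 37.9 CPM at the lowest, median and highest, with a log2 fold change of 0.19 and an interval of -0.33 to 0.72 (adjusted p = 0.652, edgeR).

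**Figure D2:**
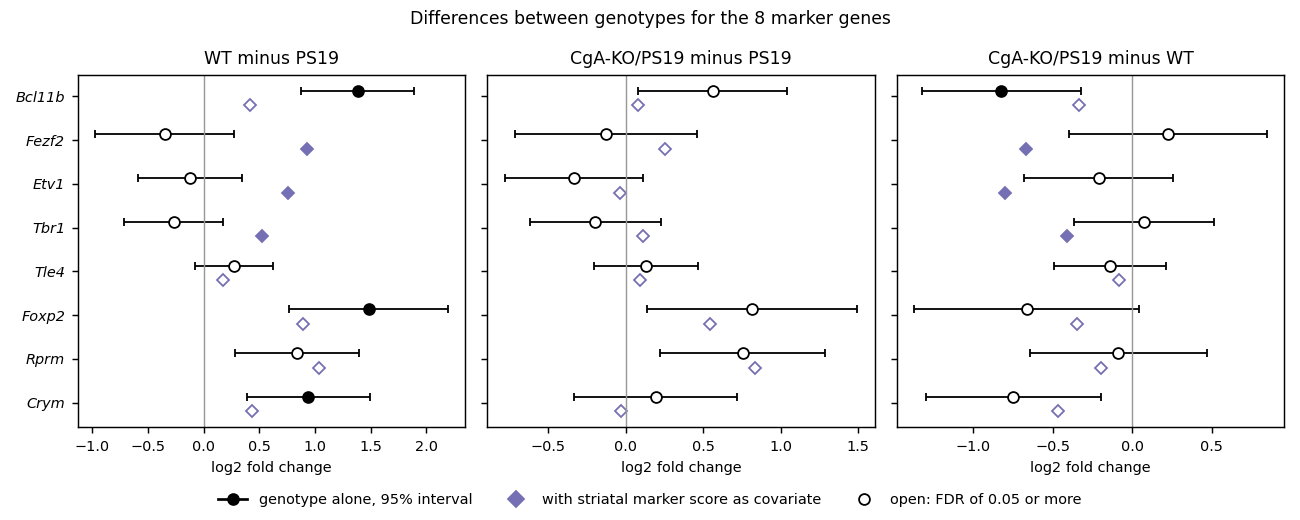
Log2 fold change of the 8 genes in the 3 comparisons, as circles with 95% intervals from the genotype fit and as diamonds with the striatal marker score added as a covariate, filled where the FDR was under 0.05. Bcl11b, Foxp2 and Crym are filled circles for WT minus PS19, and Fezf2, Etv1 and Tbr1 are filled diamonds there.

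CgA-KO/PS19 and WT, which differ by both the transgene and the loss of CgA, were compared directly. Of the 8 genes 1 was called in edgeR, Bcl11b, where 6.46% of all genes were called, 3.56% higher and 2.89% lower. Bcl11b was lower in CgA-KO/PS19, by -0.82 on the log2 scale (standard error 0.24, adjusted p = 0.0466), and its replicates 1 and 3 overlapped WT. Without replicates 1 and 3 the difference was -1.25 (adjusted p = 0.00178). Mean Bcl11b was 92.4 CPM in PS19, which keeps Chga, beside 136.2 in CgA-KO/PS19 and 240.7 in WT. Bcl11b lies 5.345 Mb from Chga on chromosome 12, and the strain origin of that interval was not determined. The transgene, linked DNA and the loss of CgA therefore cannot be told apart in this comparison. The call was lost on leaving out any of 13 single libraries, at an adjusted p of 0.0532 to 0.157, among them WT replicates 2, 3 and 5, all 6 PS19 libraries and CgA-KO/PS19 replicates 2, 4, 5 and 6.

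The other 7 genes did not pass. Crym differed by -0.75 (interval -1.30 to -0.20, adjusted p = 0.0979, edgeR), and without WT replicate 4, the shallowest library, its adjusted p was 0.0401. Foxp2 differed by -0.66 (interval -1.37 to 0.04, adjusted p = 0.263). Rprm differed by -0.09, with an interval of -0.65 to 0.47 (adjusted p = 0.897), which leaves room for a difference in either direction. Fezf2 (0.22, interval -0.39 to 0.84), Tbr1 (0.07, -0.37 to 0.52), Tle4 (-0.14, -0.50 to 0.21) and Etv1 (-0.21, -0.68 to 0.26) had adjusted p of 0.638 to 0.890 (edgeR).

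Because the striatal score moved with Bcl11b, it was added to the model as a covariate. Bcl11b, Foxp2 and Crym were then no longer called for WT minus PS19, at 0.41, 0.90 and 0.44 (adjusted p = 0.124, 0.217 and 0.455, edgeR). Fezf2, Etv1 and Tbr1 turned from below 0 to above it and were called, at 0.92, 0.76 and 0.53 (adjusted p = 0.00897, 0.0104 and 0.0331), in a fit that called 18.2% of all genes for this comparison. Rprm was 1.03 (adjusted p = 0.0807). For CgA-KO/PS19 minus PS19 none of the 8 was called, where 8.49% of all genes were, and Rprm was at 0.84 (adjusted p = 0.0713). For CgA-KO/PS19 minus WT, Etv1, Fezf2 and Tbr1 were called lower, at -0.80, -0.67 and -0.41 (adjusted p = 0.0017, 0.0131 and 0.0305), and Bcl11b was -0.34 (adjusted p = 0.112), with 21.8% of all genes called. No PS19 library had a score near those of WT, so for that comparison the covariate and the genotype cannot be told apart by these libraries, and the part of striatal RNA in each result was not tested.

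**Figure D3:**
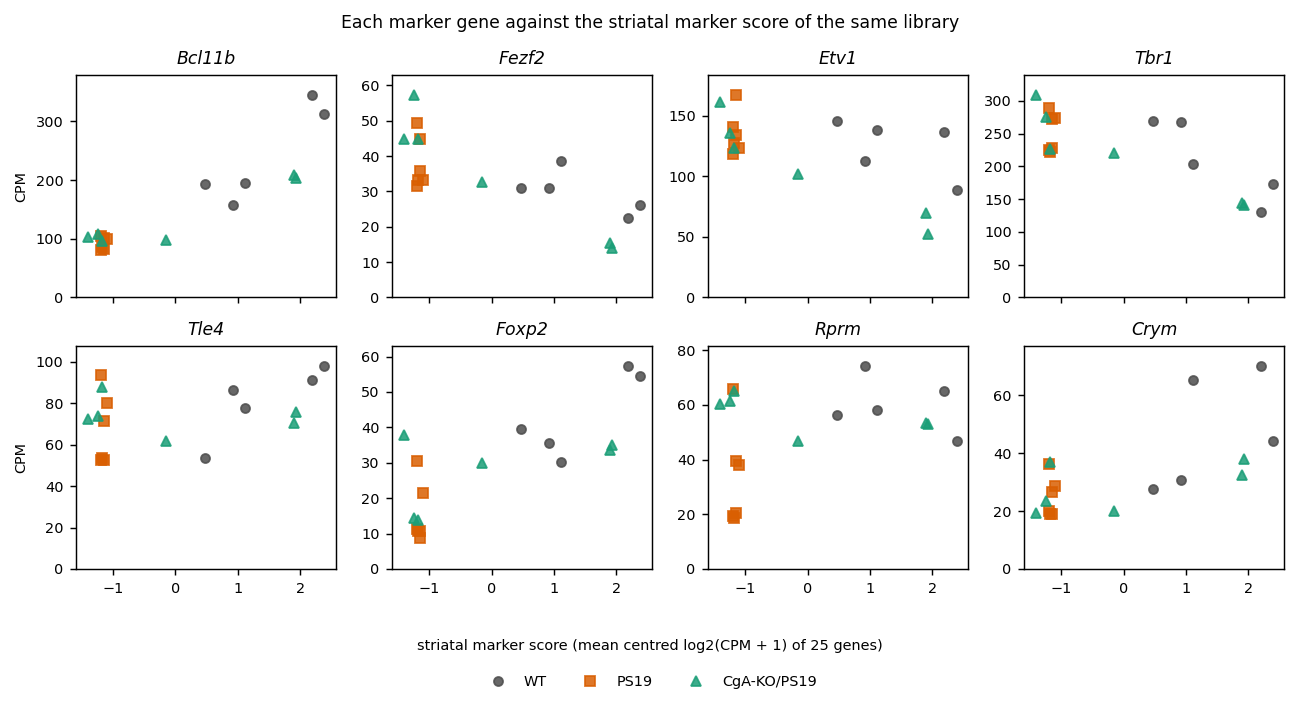
Level of each gene in CPM (vertical, from 0) against the striatal marker score of the same library (horizontal, mean centred log2(CPM + 1) of 25 genes), with genotypes as symbols. Bcl11b is highest in the libraries with the highest scores, Fezf2 and Tbr1 are lowest there, and Rprm varies from 18.7 to 65.9 CPM among PS19 libraries whose scores lie between -1.20 and -1.102.

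Other markers of layer 6 and layer 6b were lower in PS19 for part of the list, while Tbr1 and Tle4 did not pass and Rprm passed neither comparison with PS19. Of 22 tested, 11 were higher in WT than in PS19 and none lower in edgeR at an FDR under 0.05, with a median log2 fold change of 1.05, and for CgA-KO/PS19 against PS19 8 were higher and none lower, with a median of 0.71, beside -0.01 and 0.03 over all genes. Of all genes tested, 3.95% and 5.5% were called higher in these comparisons. Between CgA-KO/PS19 and WT, where 3.56% of all genes were higher and 2.89% lower, none of the 22 was higher and 3 were lower. Their summed level spanned 398 to 580.4 CPM for WT, 171 to 360.0 for PS19 and 457 to 541 for CgA-KO/PS19. The list was chosen with earlier results of these data known, and the difference in sums was not tested. Nr4a2 alone was 89.1 to 178 CPM in CgA-KO/PS19 and 9.22 to 48.6 in PS19, and without it the sums were 324 to 435 CPM and 161 to 311 CPM. Of the 22 genes, 1 (Drd1) is also on the striatal list and 3 (Car3, Gnb4 and Nr4a2) are on the list of claustrum and insula markers.

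The genes of this list with the smallest p differed between the comparisons. In WT, Sulf1, a heparan sulfatase, was 33.7 ± 5.16 CPM (SD, n = 5) against 11.6 ± 3.09 in PS19 (SD, n = 6), or 1.55 on the log2 scale (standard error 0.22, adjusted p = 0.000613, edgeR). Cyp26b1, which degrades retinoic acid, was 16.5 ± 5.17 against 3.73 ± 1.01 CPM, Moxd1 13.7 ± 4.39 against 5.47 ± 1.13, and Trh, the thyrotropin releasing hormone gene, 10.2 ± 7.25 against 0.543 ± 0.327. Sulf1, Moxd1 and Trh were the 3 that were also lower in CgA-KO/PS19 than in WT. In CgA-KO/PS19, Nr4a2 (Nurr1), a nuclear receptor of layer 6b and claustrum, was 132 ± 32.5 CPM (SD, n = 6) against 17.8 ± 15.4 in PS19 (SD, n = 6), a difference of 2.90 in log2 (standard error 0.37, adjusted p = 0.000291, edgeR). Ccn2, a matricellular protein of layer 6b, was 33.2 ± 4.87 against 14.1 ± 5.01 CPM, a difference of 1.24 in log2 (standard error 0.20, adjusted p = 0.0022). Gnb4 and Car3 were also higher, by 1.36 and 3.13 in log2 (adjusted p = 0.00783 and 3.76e-05). Car3 was a low gene, at a mean of 1.31 CPM in CgA-KO/PS19 and 0.158 in PS19. Claustrum and insula markers moved alongside: 5 of 9 were called higher in WT and 6 of 9 in CgA-KO/PS19 than in PS19, where 3.95% and 5.5% of all genes were. Their sums were 650 to 835 CPM for WT, 393 to 599 for PS19 and 713 to 874 for CgA-KO/PS19, and their part in the result was not tested.

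**Figure D4:**
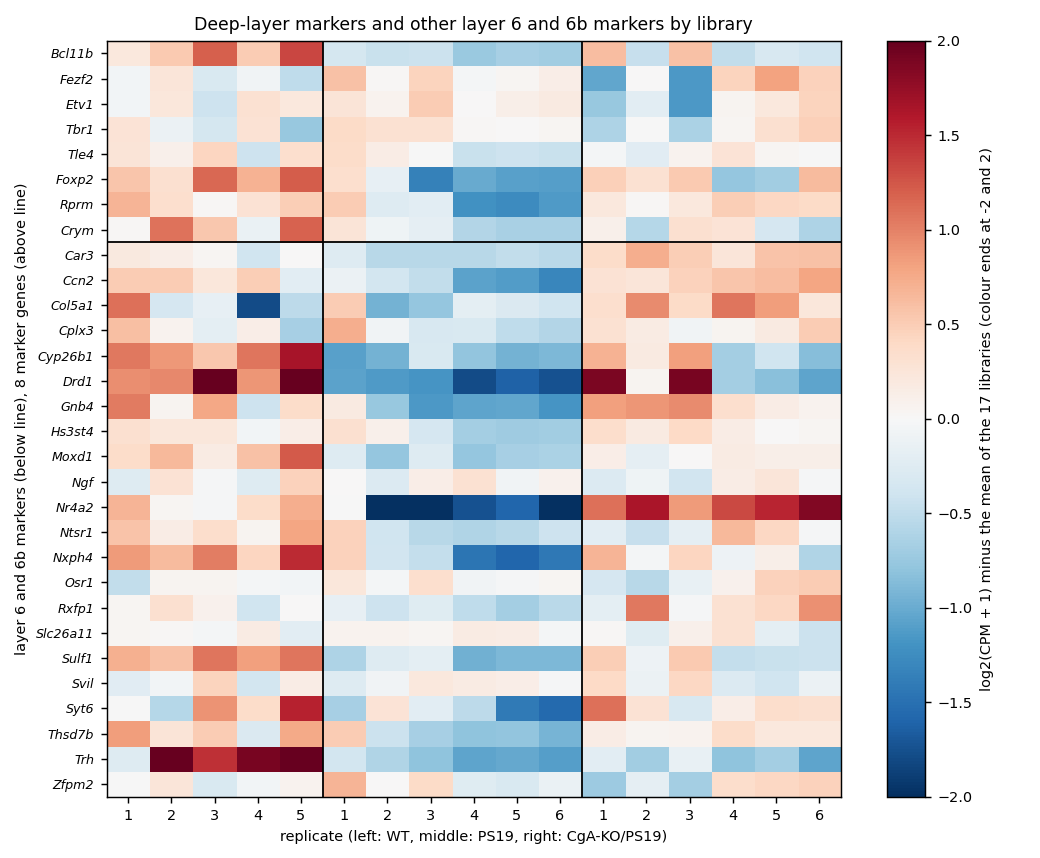
Log2(CPM + 1) of the 8 genes (above the line) and 22 other layer 6 and 6b markers (below it) in the 17 libraries, each gene minus its mean, with colour ends at -2 and 2. Foxp2, Rprm, Ccn2 and Nxph4 are low in PS19 replicates 4 to 6, and Fezf2, Etv1 and Tbr1 are low in CgA-KO/PS19 replicates 1 and 3.

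Markers of layer 5 besides the 8 genes did not move in 1 direction. Of 20 tested, at an FDR under 0.05 in edgeR, WT exceeded PS19 for 2 and fell short for 2, where 3.95% and 1.95% of all genes did. CgA-KO/PS19 exceeded PS19 for 1 and fell short for 2, where 5.5% and 4.22% of all genes did. CgA-KO/PS19 exceeded WT for 1 and fell short for 2, where 3.56% and 2.89% of all genes did. The median log2 fold changes were -0.06, -0.10 and -0.04. Kcng1, a potassium channel subunit, was 53.9 ± 21.98 CPM in WT (SD, n = 5) and 20.7 ± 2.30 in PS19 (SD, n = 6), a difference of 1.38 in log2 (standard error 0.21, adjusted p = 8e-04, edgeR), and Vat1l was 107 ± 45.2 against 41.1 ± 4.19. Hsd11b1 and Tshz2 were lower in WT, at -0.80 and -0.75 (adjusted p = 0.0265 and 0.0373). In CgA-KO/PS19 against PS19, Pou3f1, a POU factor, fell by 1.07 and Deptor, an mTOR inhibitor, fell by 0.87 on the log2 scale (adjusted p = 0.00873 and 0.0241, edgeR).

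Factors that act with the 8 genes in specifying corticofugal neurons were called in both directions against PS19, in edgeR at an FDR under 0.05. Of 33, WT exceeded PS19 for 3 and fell short for 6, where 3.95% and 1.95% of all genes tested did. CgA-KO/PS19 exceeded PS19 for 1 and fell short for 2, where 5.5% and 4.22% of all genes did. CgA-KO/PS19 exceeded WT for 4, where 3.56% of all genes did. Sox11, an SoxC factor of immature neurons, was 29.3 ± 6.24 CPM in WT (SD, n = 5), 13.8 ± 1.13 in PS19 (SD, n = 6) and 26.8 ± 1.76 in the knockout (SD, n = 6). WT and knockout exceeded PS19 by 1.08 and 0.96 in log2 (adjusted p = 0.000183 and 0.000165, edgeR). Cux2 and Pou3f3, factors of upper layers, were lower in WT than in PS19, at -0.91 and -0.90 (adjusted p = 0.0118 and 0.0156). Upper layer markers moved both ways, with 4 higher and 3 lower of 21 in WT against PS19. Of the 4 higher, 1 (Penk) is also on the striatal list. Markers of glutamatergic neurons as a class, which include Tbr1, also moved both ways, with 3 higher and 2 lower of 19.

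The genes most like each member over the 17 libraries, by Pearson's r of log2(CPM + 1) among 15474 genes, are given as a description with no test, since libraries of a genotype share their level. Bcl11b was closest to Tacr1 (0.987), Gpr139 (0.976) and Actn2 (0.976). Fezf2 was closest to Ndel1 (0.945), Ube2ql1 (0.941) and Khdrbs3 (0.938), Etv1 to Parm1 (0.973), Npr3 (0.941) and Ubqln1 (0.938), and Tbr1 to Mlip (0.969), Asap1 (0.956) and Prkaa2 (0.951). Parm1 and Npr3 were on the list of other layer 5 markers. Foxp2 was closest to Cd44 (0.896), Spock3 (0.893) and Ppp1r2 (0.885), Tle4 to Nxph3 (0.841), Thsd7b (0.820) and Glce (0.800), and Rprm to Tmem163 (0.914), Sla (0.895) and Ccn2 (0.888). Thsd7b and Ccn2 were on the list of other layer 6 and 6b markers. Crym was closest to Tmem35a (0.928), Pgrmc1 (0.923) and Efnb3 (0.912).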

How the data were processed

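Prefrontal cortex RNA was sequenced in 17 libraries, each counted as 1 mouse by the study. The authors trimmed the reads (Trimmomatic 0.39), aligned them to mm10 (STAR 2.7.10b), quantified genes with StringTie 1.3.6 and deposited whole-number counts per gene, without normalization. Low counts peaked at 3 in all 17 libraries, so that about 3 counts stand for 1 fragment. Counts were analysed with edgeR 4.0.16 (R 4.3.3): TMM, filterByExpr, a quasi-likelihood fit over all libraries with 1 mean per genotype, and Benjamini-Hochberg adjustment over 23062 genes. The common biological coefficient of variation was 0.316, and total counts of 8838334 to 227651681 make replicate spread, not counting error, the limit. Whether counting used the strand, and the annotation release, are not given in the sources used here. Coordinates are GENCODE M21 (GRCm38). The test was checked on simulated counts. Genes named are the 8 members, at most 4 genes per context list by smallest p, the 3 genes most like each member, and Chga, Drd2 and Ddx3y as checks. The 8 members and the 18 lists were chosen with earlier results of these data known. Alternatives were DESeq2 1.42.0, limma 3.58.1 voom with sample weights, DESeq2 size factors, other filters (none, or at least 10 counts in every library), fewer genotypes or libraries, covariates and a replicate block.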

Additional observations from a re-analysis of the deposited data

Results flagged for a closer look

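The difference between CgA-KO/PS19 and PS19 was compared between replicates 4 to 6 and replicates 1 to 3, with an interaction term in edgeR's quasi-likelihood test, chosen after the data had been seen. By Ddx3y these sets are female and male, and in CgA-KO/PS19 they also differ in striatal markers. For Rprm the difference was higher in replicates 4 to 6 by 1.5844 (standard error 0.2712, adjusted p = 0.00273), for Fezf2 by 1.5841 (0.385, adjusted p = 0.0173), for Etv1 by 1.0908 (0.2949, adjusted p = 0.0286) and for Tle4 by 0.7918 (0.234, adjusted p = 0.0418), all on the log2 scale. For CgA-KO/PS19 minus WT, Fezf2 was higher in replicates 4 to 6 by 1.5123 (standard error 0.4164, adjusted p = 0.0486). The same term was called for 2687 and 1262 of 23062 genes. Rprm and Tle4 were low in PS19 replicates 4 to 6, at 18.7 to 20.4 and 52.7 to 53.8 CPM, and Fezf2 and Etv1 were low in CgA-KO/PS19 replicates 1 and 3. Sex by Ddx3y, striatal markers and the mitochondrial share of counts moved with these sets of libraries, and their part was not tested. The mitochondrial share was 13.8% to 18.2% in CgA-KO/PS19 replicates 1 to 3 and 3.84%, 6.63% and 10.9% in its replicates 4 to 6. In PS19 it was 2.56% to 4.59%. No single library stood apart by Dixon's ratio in the 24 groups of the 8 genes.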

How the results depend on the processing

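The number of the 8 genes called was 3 for WT minus PS19, 0 for CgA-KO/PS19 minus PS19 and 1 for CgA-KO/PS19 minus WT, and as a count stayed within 1.5 times of that under 27, 24 and 8 of 32 alternatives. The genes called were exactly the same under 12, 24 and 8 of them. For WT minus PS19, 3 alternatives shared no called gene with it, among them the striatal covariate, which also called 3, beside 18.2% of all genes. For WT minus PS19 it was 5 with limma voom weights, beside 17.2% of all genes, and 1 with near-identical libraries averaged, beside 1.92%. It was 0 within replicates 1 to 3 (0.592% of all genes) or without PS19 replicates 4 to 6 (0.23%), against 5.9% in the main fit. For CgA-KO/PS19 minus PS19 it was 1 with DESeq2 (9.9% of all genes) and with at least 10 counts in every library (14.8%). It was also 1 with a Ddx3y covariate (9.54%) and within replicates 4 to 6 (0.806%). It was 2 with limma voom weights (22.7%) and 3 within replicates 1 to 3 (31.1%), against 9.72% in the main fit. For CgA-KO/PS19 minus WT it was 0 with DESeq2 size factors (6.62% of all genes), no filter (2.54%) and the filter of 10 counts (9.36%). It was also 0 with a fit of the 2 genotypes alone (1.3%), within replicates 1 to 3 (20.7%) or without PS19 replicates 4 to 6 (3.16%). With the striatal covariate it was 3 (21.8%). It was 2 within replicates 4 to 6 (3.05%) or without CgA-KO/PS19 replicates 1 to 3 (4.16%), against 6.46% in the main fit. Leaving out 1 library gave 1 to 4, 0 to 2 and 0 to 2. The share of all genes called in those fits was 2.79% to 7.21%, 4.46% to 17.3% and 2.76% to 8.89%. Leaving out whole sets of libraries other than by replicate number was chosen after the data had been seen. The cause of these changes was not tested.

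Signs turned in WT minus PS19 with the striatal covariate for Fezf2 (0.92), Tbr1 (0.53) and Etv1 (0.76), without PS19 replicates 4 to 6 for Tle4 (-0.0040) and within replicates 4 to 6 for Etv1 (0.13). In CgA-KO/PS19 minus PS19 they turned with the striatal covariate for Fezf2 (0.25), Tbr1 (0.11) and Crym (-0.033), within replicates 4 to 6 for Fezf2 (0.53), Tbr1 (0.25) and Etv1 (0.12), within replicates 1 to 3 for Tle4 (-0.22), with near-identical libraries averaged for Tle4 (-0.0035) and Crym (-0.012), and without PS19 replicates 4 to 6 for Tle4 (-0.14) and Crym (-0.094). Without CgA-KO/PS19 replicates 1 and 3 they turned for Fezf2 (0.23) and Tbr1 (0.029), and without its replicates 1 to 3 for Fezf2 (0.36), Tbr1 (0.10) and Etv1 (0.039). Without 1 library, Fezf2 ranged from -0.32 to 0.045. In CgA-KO/PS19 minus WT they turned with limma voom weights for Fezf2 (-0.085), with the striatal covariate for Fezf2 (-0.67) and Tbr1 (-0.41), within replicates 1 to 3 for Fezf2 (-0.61) and Tbr1 (-0.34), within replicates 4 to 6 for Tle4 (0.11) and Rprm (0.039), without CgA-KO/PS19 replicates 1 to 3 for Rprm (0.052) and Etv1 (0.18), and without replicates 1 and 3 for Etv1 (0.073). Without 1 library, Tbr1 ranged from -0.056 to 0.18.

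With a replicate block, 2, 0 and 0 of the 8 genes were called: Crym lost its call (0.85, adjusted p = 0.142, edgeR), as did Bcl11b for CgA-KO/PS19 minus WT (-0.81, adjusted p = 0.0774). Over all genes the block left 513 higher and 147 lower, 388 and 266, and 325 and 289, against 911 and 450, 1268 and 974, and 822 and 667. Same-numbered libraries correlated in their deviations from the genotype means at -0.272 to 0.465, so the libraries share a number and no pairing was assumed. The totals of at least 8838334 counts leave replicate spread as the limit for the 8 genes, whose lowest count was 242.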

Other observations

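Markers of other brain regions and cell types were counted in the same way, in edgeR at an FDR under 0.05, with lists chosen with earlier results of these data known. Basal forebrain cholinergic markers exceeded PS19 for 8 of 9 in WT and 3 of 9 in CgA-KO/PS19, with 1 lower in CgA-KO/PS19 than in WT. Of 11 choroid plexus and ependyma markers 5 were higher in WT and 1 in CgA-KO/PS19 than in PS19, and 3 were lower in CgA-KO/PS19 than in WT. Of 11 olfactory and subventricular markers 4 were higher in WT than in PS19, and 6 were lower in CgA-KO/PS19 than in WT. Of 14 hippocampus markers 4 were higher in WT than in PS19, 1 was lower in CgA-KO/PS19 than in PS19 and 5 were lower in CgA-KO/PS19 than in WT. Of 14 thalamus markers WT exceeded PS19 for 2 and fell short for 2, CgA-KO/PS19 exceeded PS19 for 1, and 2 were lower in CgA-KO/PS19 than in WT.

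Cortical interneuron markers were lower in CgA-KO/PS19 for 6 of 17 against PS19 and 5 of 17 against WT, and WT exceeded PS19 for 2 and fell short for 1. Of 14 general neuron markers 1 was higher in WT than in PS19, and CgA-KO/PS19 exceeded PS19 for 1, with 2 below PS19 and 1 below WT. Of 11 astrocyte markers 2 were lower in WT than in PS19, and 2 were higher in CgA-KO/PS19 than in each other genotype. Of 13 oligodendrocyte lineage markers CgA-KO/PS19 exceeded PS19 for 1 and WT for 2. Upper layer markers of CgA-KO/PS19 were higher for 3 and lower for 3 of 21 against PS19. Against WT they were lower for 4, among them Penk, which is also on the striatal list. Glutamatergic neuron markers of CgA-KO/PS19 were lower for 1 of 19 against PS19 and 2 against WT. Microglia and endothelial markers, 11 each, had no member called in any comparison. Of all genes, 5.9% were called for WT minus PS19, 9.72% for CgA-KO/PS19 minus PS19 and 6.46% for CgA-KO/PS19 minus WT. How these regions and cell types bear on the 8 genes was not tested.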
